A study of Mus musculus with 4 samples.

Results

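The comparison described here is the effect of Ruvbl2 siRNA in RAW264.7 cells without LPS, which is 1 array of cells given the Ruvbl2 siRNA and DMSO against 1 array of cells given the control siRNA and DMSO. A probe was compared when the scanner software called it well above background on both arrays and its level was at least -2 on the brighter one, where a level is the log2 processed signal minus that array's 75th percentile, so that 0 marks the 75th percentile. Of 56605 RNA probes 20875 met this rule, or 36.9%, and of 22911 named genes 10638 did. A gene was read from 1 probe, the brightest of its probes on average over all 4 arrays of the series. All differences below are Ruvbl2 siRNA minus control siRNA on the log2 scale, and a gene was called when the difference reached 1 in size, that is 2-fold.

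RAW264.7 is a mouse macrophage-like line. The control cells carried a non-targeting siRNA and the others a SMARTpool of siRNAs against Ruvbl2, in a title that spells the target with 1 letter missing. All cells were collected 2 days after transfection, which was done by Neon electroporation or with a lipid reagent, and the sources used here do not say which. A second pair of arrays held cells with the same siRNAs and LPS (lipopolysaccharide, a bacterial cell wall component). For neither DMSO nor LPS do the sources used here give a dose or a duration. Each group was 1 array, so there is no replicate spread, no test and no p-value for any difference given here. The values describe these cultures and arrays.

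RUVBL2 is an ATPase of the AAA+ family that forms a hexameric ring with RUVBL1. The ring is part of the INO80, SRCAP and TIP60 chromatin complexes, and it serves the R2TP chaperone, which assembles kinases of the PIKK family, RNA polymerase II and small nucleolar ribonucleoproteins. Much of what follows concerns genes induced by interferon. Interferon bound to its receptor activates the kinases JAK1 and TYK2, which phosphorylate transcription factors of the STAT family. With IRF9 these form a complex that binds the interferon-stimulated response element (ISRE) in promoters, and macrophages keep many of these genes on at a low level without infection.

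The arrays were alike in how much they detected: 55.0% of RNA spots were well above background on the control siRNA array and 54.3% on the Ruvbl2 siRNA array, with 0 saturated spots. The 75th percentile of the signal was 456 and 331, respectively. E1A spike-in RNA, which is added in a fixed amount before labelling, had a median level of 3.64 on the control siRNA array and 3.95 on the Ruvbl2 siRNA array, and scaling on it in place of the 75th percentile lowers every difference by 0.30. Taken 1 by 1, the 7 spike-in probes used differed by 0.20 to 0.33, with a median of 0.26. The median difference of all genes compared was 0.04 and became -0.26 with spike-in scaling. On the LPS pair the spike-ins differed by a median of 0.01. Row 1 of the slide held the control siRNA arrays and row 2 the Ruvbl2 siRNA arrays, and the effects of row and siRNA cannot be told apart. Technical spread was read from probes printed several times on an array: the SD of a log2 difference was 0.27 at levels from -4 to -2, 0.16 from -2 to 0 (a single repeated probe), 0.11 from 0 to 2, 0.10 from 2 to 4 and 0.06 above 4. Macrophage genes were well above background on both arrays, with levels of 8.93 and 9.13 for Csf1r, the receptor for macrophage colony-stimulating factor, of 7.05 on both for the lysozyme gene Lyz2 and of 6.97 and 7.22 for Cd68.

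Few genes differed by 2-fold: 21 were higher with Ruvbl2 siRNA, 0.197% of the genes compared, and 34 were lower, 0.32%, which makes 0.517% in all. At 1.5-fold the counts were 126 higher (1.18%) and 153 lower (1.44%), or 2.62% in all, and 97.4% of genes lay within 1.5-fold. The differences ran from -3.11 to 2.58, with an SD of 0.25 across genes. Higher genes made up 38.2% of the 2-fold calls. With spike-in scaling 11 genes were higher (0.103%) and 101 lower (0.949%), and higher genes made up 9.8%. Because this scaling lowers every difference by 0.30, no called gene could change direction and none of the 34 lower ones could lose its 2-fold size. Of the 21 higher ones 11 kept theirs. Counted as probes, 92 of 20875 passed 2-fold (0.441%). Among probes with no gene symbol, 5449 were compared, of which 12 were 2-fold higher and 12 lower. Around the level minimum the calls became denser towards dim genes: of 393 genes whose brighter level lay between -2 and -1.5, 2 were higher and 4 lower, and of 426 just under the minimum, which were left out, 9 and 9 would have been called.

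**Figure D1:**
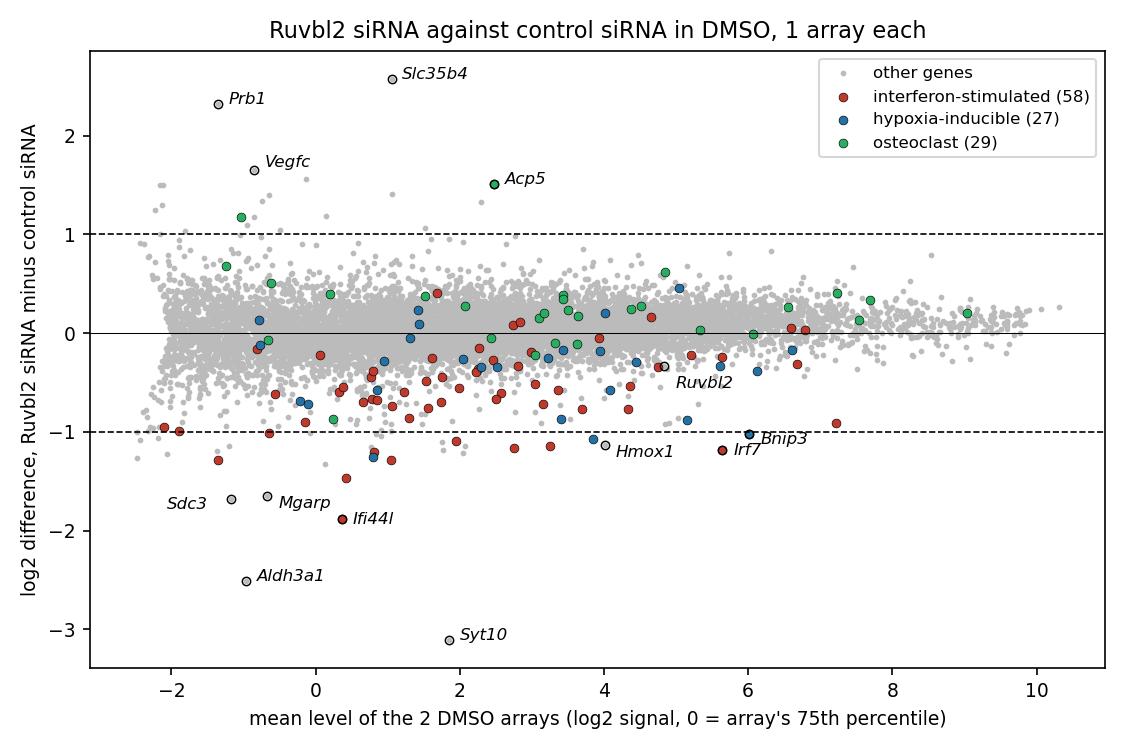
Log2 difference (Ruvbl2 siRNA minus control siRNA, DMSO) of every gene compared, on the vertical axis, against its mean level on the 2 DMSO arrays, on the horizontal axis, with 1 point per gene. Dashed lines mark 2-fold. Interferon-stimulated genes, in red, lie mostly below 0 (52 of 58), and the outermost points are Syt10 at -3.11 and Slc35b4 at 2.58.

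Ruvbl2 itself was lower by less than 2-fold. Its brighter probe had a level of 5.01 with control siRNA and 4.67 with Ruvbl2 siRNA, a difference of -0.34 (1.26-fold lower). Repeated spots at that level had an SD of 0.06, the scanner software's error of the difference was 0.20, and the SD across all genes above a level of 4 was 0.18. A second probe had levels of -1.61 and -2.15, a difference of -0.55. On the LPS pair the same probes differed by -0.40 and, with both levels under -2, by -0.12. Spike-in scaling gave -0.64 and -0.85 in DMSO. Ruvbl1, which encodes the partner ATPase, had a level of 5.56 on both DMSO arrays. An array of this kind reads RNA, and the RUVBL2 protein was not measured.

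Interferon-stimulated genes were the largest group among the lower genes. The list held 84 genes, of which 75 were on the array and 58 were compared, the other 17 being too dim on these arrays. Below 0 lay 52 of the 58 members, against 40.6% of all genes compared, and 29 were lower by 1.5-fold or more, against 1.44%. Past 2-fold were 10, against 0.32%, and 0 members were higher by 1.5-fold, against 1.18%. The list median was -0.58, against 0.04 for all genes. With spike-in scaling the median was -0.89 and 57 members lay below 0. These are counts within a list that was drawn up with earlier results of these data known. RNA from a culture does not tell fewer cells of a kind from less RNA per cell.

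The 10 interferon-stimulated genes past 2-fold were Ifi44l, Apol9b, Oasl2, Isg20, Apol9a, Irf7, Ifi44, Isg15, Cxcl10 and Cmpk2. Promoters of 4 of them are shown, because the members moved together and the ISRE is their best known shared element. The first pair have the largest differences of the list, and Isg15 and Cxcl10 were chosen after their values and sequences were seen, as examples with the element. Each sequence is the RefSeq window of 300 bases on GRCm38.p6 that begins 250 bases before the transcript start, written 5′ to 3′ on the gene's strand. Capitals mark matches to the ISRE core searched, GAAA followed by any 2 bases and GAAA, on either strand, some of which overlap. Ifi44l lies at chr3:151762842-151763141 on the minus strand, Apol9b at chr15:77728822-77729121 on the plus strand (the first of its 2 windows), Isg15 at chr4:156200769-156201068 on the minus strand and Cxcl10 at chr5:92348840-92349139 on the minus strand.
Ifi44l: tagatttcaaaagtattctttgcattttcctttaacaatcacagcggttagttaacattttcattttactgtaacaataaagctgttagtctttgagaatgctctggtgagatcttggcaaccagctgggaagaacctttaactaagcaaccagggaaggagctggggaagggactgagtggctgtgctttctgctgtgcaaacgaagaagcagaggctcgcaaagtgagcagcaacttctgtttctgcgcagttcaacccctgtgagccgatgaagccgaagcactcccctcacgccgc
Apol9b: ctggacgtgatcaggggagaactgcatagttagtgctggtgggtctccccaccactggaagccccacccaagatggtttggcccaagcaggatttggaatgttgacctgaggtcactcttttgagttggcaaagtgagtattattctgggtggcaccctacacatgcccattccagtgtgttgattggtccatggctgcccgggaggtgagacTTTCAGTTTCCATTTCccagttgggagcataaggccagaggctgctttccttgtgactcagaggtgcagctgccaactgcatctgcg
Isg15: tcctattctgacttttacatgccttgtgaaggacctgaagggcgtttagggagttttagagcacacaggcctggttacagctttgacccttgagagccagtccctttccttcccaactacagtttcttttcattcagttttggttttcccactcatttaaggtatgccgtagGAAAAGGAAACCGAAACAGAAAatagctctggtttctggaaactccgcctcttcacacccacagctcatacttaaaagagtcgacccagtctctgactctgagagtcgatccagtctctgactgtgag
Cxcl10: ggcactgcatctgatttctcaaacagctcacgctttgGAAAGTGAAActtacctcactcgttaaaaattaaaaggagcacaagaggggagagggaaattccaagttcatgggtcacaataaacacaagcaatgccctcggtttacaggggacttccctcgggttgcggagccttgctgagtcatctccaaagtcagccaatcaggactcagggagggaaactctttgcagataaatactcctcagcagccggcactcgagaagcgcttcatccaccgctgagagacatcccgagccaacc
Ifi44l has no capitals, Apol9b holds 2 matches on the reverse strand, Isg15 holds 3 on the forward strand and Cxcl10 holds 1 on the forward strand. Windows were found for 49 of the 58 members compared, and 25 of the 49 held the motif (51%). Of the members lower by 1.5-fold or more, 15 of 24 with a window held it (62.5%). Among all genes compared the share was 3.63%, or 312 of 8595 with a window, and among all 32851 windows of the table it was 3.44%. This contrast goes with the choice of a list of genes that answer to interferon. It does not bear on the siRNA difference. Of the 10 members past 2-fold, 4 held it: Apol9a, Apol9b, Isg15 and Cxcl10. Apol9a and Apol9b hold the same matched stretch and are not separate cases. A match is a description of the letters, and its absence says only that they are not in this window.

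Of 5 transcription factors of the response, 4 lay below 0 (against 40.6% of all genes) and 1 passed 1.5-fold as lower (against 1.44%). Irf7, the transcription factor that drives the interferon genes, had a level of 6.24 with control siRNA and 5.05 with Ruvbl2 siRNA. Its difference was -1.19, or 2.28-fold lower, and a second Irf7 probe gave -1.34. On the LPS arrays Irf7 was at 8.76 and 8.19, so that the Ruvbl2 siRNA array in DMSO was the lowest of the 4. To show each role, members below 2-fold are also named here, and these were chosen after their values were seen. Stat2 differed by -0.40, Irf9 by -0.19 and Irf1 by 0.11.

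Sensors of foreign nucleic acid read lower as well, with a median of -0.59 over 7 members. Of these 4 passed 1.5-fold as lower, against 1.44% of all genes. Dhx58, which encodes LGP2, was at 1.44 and 0.69 (difference -0.74), and Ifih1, which encodes MDA5, was at 0.62 and 0.03 (-0.59). Zbp1, a sensor of Z-form nucleic acid, was at -0.25 and -0.87 (-0.61). Aim2, a DNA sensor of the inflammasome, was the exception at 1.48 and 1.88, a difference of 0.40. 

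Antiviral effectors were the most numerous role, with 25 of 29 below 0 (against 40.6% of all genes), 15 past 1.5-fold as lower (against 1.44%) and a median of -0.67. Ifi44l, an interferon-induced gene, had a level of 1.31 with control siRNA and -0.57 with Ruvbl2 siRNA, and was 3.68-fold lower. Its neighbour in the genome, Ifi44, was at 3.34 and 2.18 (2.23-fold lower). For Isg20, an exonuclease that degrades viral RNA, the levels were 1.69 and 0.41 (2.43-fold lower), and its second probe gave -1.71. Cmpk2, a mitochondrial nucleotide kinase, was at -0.14 and -1.14 (2.01-fold lower, and under 2-fold after normexp background correction). Apol9b was at 1.15 and -0.32 and Apol9a at 1.42 and 0.21. These apolipoprotein L genes are close copies and may share a signal, so they are not 2 separate readings. Rsad2, which encodes viperin, differed by -0.99, and Bst2, which encodes tetherin, by -0.77. Ifitm3, which blocks viral entry, differed by 0.03.

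The oligoadenylate synthetase genes, whose products switch on RNase L, lay below 0 in 7 of 7 cases, against 40.6% of all genes, with a median of -0.53. Oasl2 was at -0.71 and -1.99 (2.44-fold lower, and under 2-fold after normexp correction), Oas3 differed by -0.68 and Oas1a by -0.31. Family members resemble each other in sequence, and their probes may not tell them apart fully. In the pathway that attaches ISG15 to proteins, Isg15 was at 3.82 and 2.68 (2.21-fold lower) and Usp18, which removes ISG15, at 3.52 and 2.80 (a difference of -0.71). The conjugating enzymes differed less, by -0.34 for the E1 enzyme gene Uba7 and by -0.26 for the E2 enzyme gene Ube2l6. The interferon-inducible GTPases compared, Igtp, Irgm2, Irgm1 and Ifi47, differed by -0.69, -0.60, -0.56 and -0.48. Cxcl10, a chemokine for T cells, was at 2.50 and 1.41 (2.13-fold lower). Ifit3 differed by -0.95, but its close copy Ifit3b was too dim to compare. The medians of the roles with at least 2 members ran from -0.67 to -0.40, and the 6 members above 0 were Ifitm3, Trim25, Slfn2, Irf1, Samhd1 and Aim2.

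**Figure D2:**
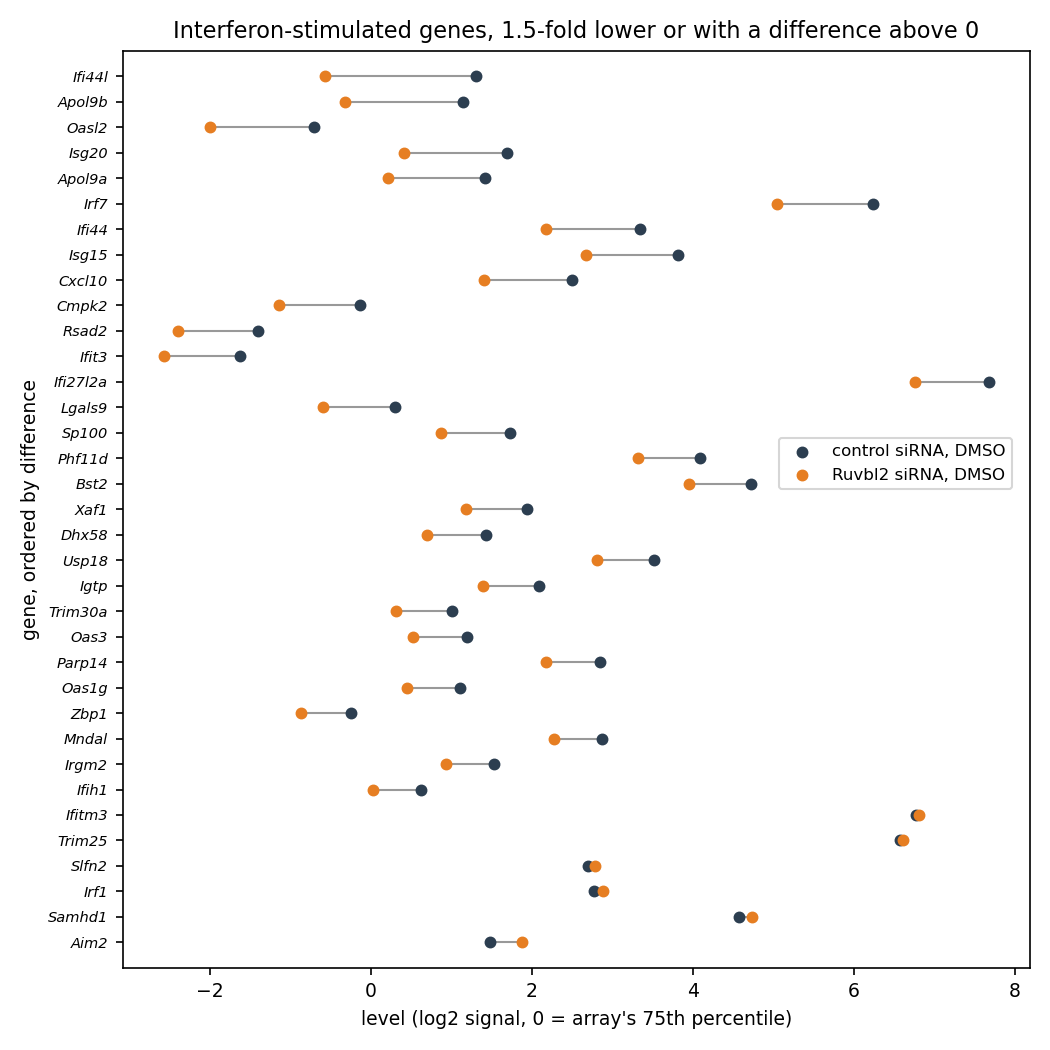
Levels (log2 signal, 0 = the array's 75th percentile) of the interferon-stimulated genes that were lower by 1.5-fold or more (29) or had a difference above 0 (6), with 1 row per gene ordered by difference; those in between are not drawn. Dark points are the control siRNA array and orange points the Ruvbl2 siRNA array, both in DMSO. The orange point is to the left in the upper 29 rows and to the right in the lower 6.

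The genes that make and receive the interferon signal did not share this shift. Of 30 listed, 25 were compared. Above 0 lay 13, against 59.2% of all genes, and below it 12, against 40.6%. Their median was 0.00 (-0.30 with spike-in scaling). Tyk2, a kinase of the interferon receptor, was at 1.03 and 0.34, a difference of -0.68. It was the single member of the 25 past 1.5-fold, against 1.44% of all genes lower by that much. The receptor chains Ifnar1 and Ifnar2 differed by 0.01 and 0.15, and Jak1 by 0.15. Irf3, which starts the transcription of interferon genes, was at 4.97 on both arrays, and Ticam1, the adaptor of Toll-like receptors 3 and 4, differed by -0.51. The ligand genes Ifnb1, Ifna2, Ifna4 and Ifng were too dim to be compared, so nothing is said of their levels here.

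Some hypoxia-inducible genes also read lower, while few glycolysis genes passed 1.5-fold. Cells short of oxygen stabilise HIF1A, which raises the genes of glucose uptake, glycolysis and mitochondrial turnover through the core sequence ACGTG. Of 27 hypoxia genes compared, 22 lay below 0 (against 40.6%), 7 were lower by 1.5-fold (against 1.44% of all genes) and 3 by 2-fold (against 0.32%), with a median of -0.29. The 6 oxygen-sensing genes had a median of -0.14 and the 21 targets one of -0.34. Adm, the gene of the vasodilator adrenomedullin, was at 1.43 and 0.17, or 2.39-fold lower. Ankrd37, an ankyrin repeat gene, was at 4.39 and 3.32 (2.10-fold lower), and Bnip3, a mitophagy receptor, at 6.52 and 5.50 (2.03-fold lower). Ndrg1 had levels of 5.59 and 4.71, a difference of -0.88. Egln2, a prolyl hydroxylase that marks HIF proteins for destruction, was at 4.82 and 5.27, a difference of 0.45 that is 0.15 with spike-in scaling. Hif1a differed by -0.17.

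In glycolysis 23 of 30 genes lay below 0, against 40.6%, with a median of -0.21. Lower by 1.5-fold were 2 of 30, against 1.44%, and 0 passed 2-fold, against 0.517% of all genes. Eno2, an enolase, was at 1.55 and 0.55, a difference of -0.99 that passed 2-fold with spike-in scaling, quantile normalization, cyclic loess and both normexp settings, and the glycogen branching enzyme gene Gbe1 was at 2.80 and 2.15, a difference of -0.65. Enzyme genes with high signal stayed close: Gapdh differed by 0.00, Aldoa by -0.02, Pkm by 0.06, Eno1 by -0.10 and Ldha by -0.11. Promoter windows held ACGTG in 16 of 24 hypoxia genes (66.7%) and 18 of 29 glycolysis genes (62.1%), against 30% of genes compared. These shares go with the choice of the lists and do not bear on the siRNA difference. Of the hypoxia genes lower by 1.5-fold, 3 of 6 with a window held it, and of the glycolysis genes lower by 1.5-fold, 0 of 2.

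Among the genes of the antioxidant programme, which NRF2 drives through the antioxidant response element, a pair stood far below the rest. Aldh3a1, an aldehyde dehydrogenase, was at 0.29 with control siRNA and -2.21 with Ruvbl2 siRNA, or 5.68-fold lower, and it was at -0.04 and 0.11 on the LPS arrays. Hmox1, which encodes heme oxygenase 1, was at 4.58 and 3.45, or 2.19-fold lower, and at 4.82 and 4.96 on the LPS arrays. For both genes the Ruvbl2 siRNA array in DMSO was the low one of 4. The rest of the list did not follow: 29 of 35 genes lay above 0, against 59.2% of all genes, with a median of 0.17. Gpx1, a glutathione peroxidase, was at 7.12 and 7.79 (a difference of 0.67), Osgin1 differed by 0.60, and Nfe2l2, the gene of NRF2, by 0.22. With spike-in scaling the list median was -0.13 and Gpx1 and Osgin1 differed by 0.36 and 0.30. The motif TGACNNNGC was in the windows of 11 of 29 members (37.9%), against 16.7% of genes compared. That share goes with the choice of the list and does not bear on the siRNA difference.

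Genes of osteoclasts, the bone-resorbing cells that RAW264.7 can form when given RANKL, had the highest list median, 0.24, with 22 of 29 above 0, against 59.2% of all genes. It was -0.06 with spike-in scaling, while all genes then stood at -0.26. Past 1.5-fold as higher were 4, against 1.18% of all genes, and past 2-fold were 2, against 0.197%. Acp5, the tartrate-resistant acid phosphatase, was at 1.72 with control siRNA and 3.23 with Ruvbl2 siRNA, or 2.86-fold higher. Ctsk, the collagen-degrading protease cathepsin K, was at -1.62 and -0.45, or 2.26-fold higher, and was under 2-fold after normexp correction (0.85) and with spike-in scaling (0.87). Tnfrsf11a, which encodes RANK, the receptor for RANKL, was at 4.54 and 5.16 (a difference of 0.62, with 0.14 by a second probe), and the transcription factor gene Tfec at -1.58 and -0.90 (0.68). Nfatc1, the master factor of the lineage, differed by 0.28. Ocstamp, a membrane protein of cell fusion, was at 0.67 and -0.20 (-0.87), and its relative Dcstamp differed by -0.22. Mmp9, Itgb3, Calcr, Siglec15 and Oscar were too dim to be compared.

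Macrophage identity genes lay above 0 in 23 of 28 cases, against 59.2% of all genes, with a median of 0.19 (-0.12 with spike-in scaling). Past 2-fold were 0, against 0.517% of all genes. Fcgr2b, the inhibitory IgG receptor, was at -1.08 and -0.31 (a difference of 0.78), and Fcgr1, the high-affinity IgG receptor, at 2.73 and 2.14 (-0.59). Itgam, Lyz2 and Ptprc differed by 0.02, -0.01 and -0.19. In the p53 pathway, whose factor halts the cell cycle after DNA damage, 24 of 32 genes lay above 0, against 59.2%, with a median of 0.12 (-0.18 with spike-in scaling). Phlda3, which restrains the kinase Akt, was the single member past 1.5-fold as higher (against 1.18% of all genes), at 0.36 and 1.77 or 2.65-fold higher. Mdm2 differed by 0.26, Cdkn1a by 0.13 and Pmaip1, which encodes NOXA, by -0.51.

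Inflammatory genes that LPS can induce had a median of 0.12 in these cells without LPS (-0.18 with spike-in scaling). Of 60 listed, 41 could be compared, and 28 lay above 0, against 59.2% of all genes. At 1.5-fold 2 were higher and 2 lower, against 1.18% and 1.44%, and at 2-fold 1 and 2, against 0.197% and 0.32%. Atf3, a stress-induced repressor, was at 2.37 with control siRNA and 1.18 with Ruvbl2 siRNA (2.27-fold lower), and Ier3, an early response gene of cell survival, at 2.65 and 1.5 (2.21-fold lower). Saa3, an acute phase protein, was at -1.45 and -0.27 (2.26-fold higher, and under 2-fold after normexp correction and with spike-in scaling), and the fungal lectin receptor gene Clec4e at 3.40 and 4.06 (a difference of 0.66). The chemokine genes Ccl4 and Ccl3 differed by -0.58 and -0.32. The cytokine genes Il1b, Il6 and Il10 were too dim to be compared.

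Genes of the complexes that RUVBL2 works in differed little in RNA, as did most genes compared. Of 32 chromatin complex genes compared, 0 passed 1.5-fold in either direction, against 2.62% of all genes. For a list of this size 0 is near that share. The list had a median of 0.08 and a range of -0.25 to 0.50. Median differences were 0.06 for INO80, 0.12 for SRCAP and 0.09 for TIP60 subunits, and Kat5, the acetyltransferase of TIP60, differed by 0.31. Of 36 chaperone complex and client genes, 1 was past 1.5-fold as higher, against 1.18% of all genes, and 0 as lower, against 1.44%. It was the largest RNA polymerase II subunit gene, Polr2a, at 5.01 and 5.61 (a difference of 0.59, with 0.36 by a second probe). The PIKK kinase genes Prkdc, Atm, Atr, Mtor and Smg1 differed by -0.41, -0.33, -0.28, -0.24 and 0.33. The TTT complex genes Tti2, Telo2 and Tti1 differed by 0.20, 0.11 and 0.07, and the median of these 8 genes was -0.09. With spike-in scaling the medians of both lists were below 0 (-0.23 and -0.21), as was that of all genes.

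Other lists stayed near the median of all genes. The ATF4 list, whose factor answers amino acid shortage, had a median of 0.02 over 37 genes. Lower by 1.5-fold were 2 of the 37, against 1.44% of all genes. These were Atf3 and Trib3, a pseudokinase (1.75 and 1.04, a difference of -0.71). By the brightest probe of each gene, the unfolded protein response (24 genes, median -0.02), heat shock (22, 0.05), cell cycle (45, 0.02), lysosome (38, 0.03) and sterol (31, 0.00) lists had 0 members past 1.5-fold. For each of these lists, given its size, 0 is near the 2.62% of all genes past 1.5-fold. Of their members, the chaperone gene Hspa5 differed by -0.13. For Hspa8 the brightest probe gave 0.00 and 3 other probes gave -0.37, -0.29 and -0.27. Mcm6, a DNA replication gene, gave 0.11 by its brightest probe and -0.64, or 1.56-fold lower, by another. Xbp1 gave 0.02 by its brightest probe and -0.29 and -0.46 by others. Differences were 0.18 for the mitotic gene Birc5 and 0.18 for the lysosomal membrane gene Lamp1. The largest value of the lysosome list was that of Gpnmb, a membrane glycoprotein, at 0.57.

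**Figure D3:**
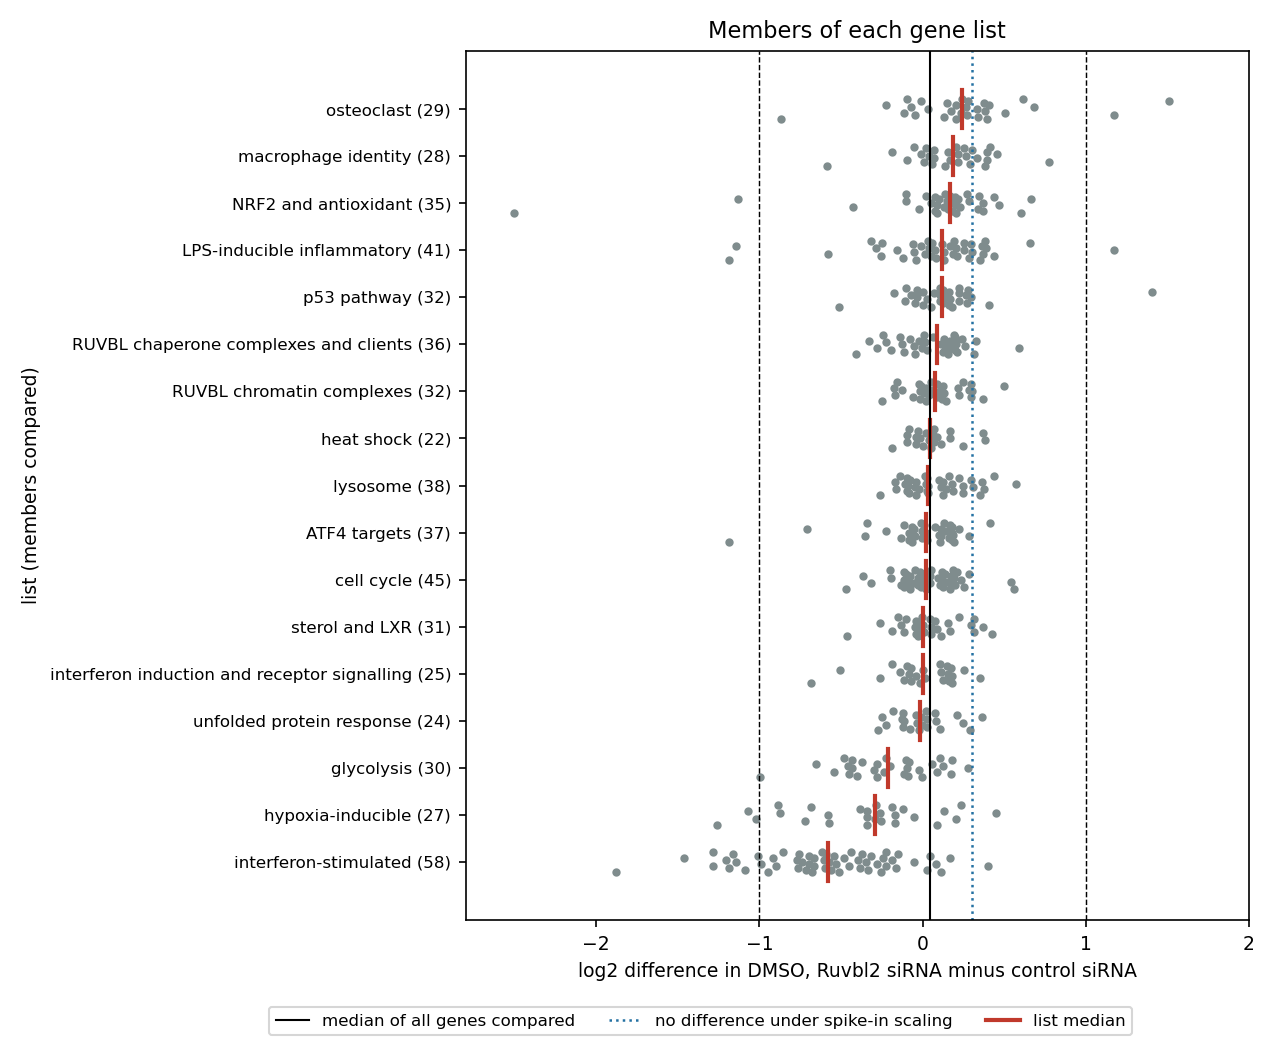
Log2 difference in DMSO (horizontal axis) of each member compared, by gene list (rows, with the number of members), with 1 point per gene. Red bars are list medians, the solid line is the median of all genes (0.04), the dotted line marks no difference under spike-in scaling (0.30) and dashed lines mark 2-fold. The interferon-stimulated (-0.58), hypoxia (-0.29) and glycolysis (-0.21) medians lie to the left of the other lists.

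Several large differences were in genes of no list. Syt10, a synaptotagmin of vesicle release, was at 3.41 with control siRNA and 0.30 with Ruvbl2 siRNA, or 8.61-fold lower, and at 3.02 and 2.98 on the LPS arrays. Sdc3, the heparan sulfate proteoglycan syndecan 3, was at -0.33 and -2.01 (3.21-fold lower), and Mgarp, a mitochondrial protein of steroid-producing cells, at 0.16 and -1.49 (3.13-fold lower). Both were also lower on the LPS pair, by 2.94-fold and 2.99-fold. Selenbp2, a selenium-binding protein, was at 2.66 and 1.44, and its close copy Selenbp1, named because it may share the signal, at 2.31 and 1.21. H2-T24, a non-classical MHC class I gene of a family with similar sequences, differed by -1.33, with -1.25 by a second probe. Fgf11, a growth factor homologous gene, was at 1.35 and 0.20, with -0.83 by a second probe. Nmrk1, a kinase of the NAD salvage route, and the antisense transcript Appbp2os differed by -1.23 and -1.20, and both were under 2-fold after normexp correction.

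On the higher side Slc35b4, a transporter of nucleotide sugars, was at -0.23 with control siRNA and 2.34 with Ruvbl2 siRNA, or 5.96-fold higher, against 0.14 and 0.53 on the LPS arrays. Prb1, a salivary proline-rich protein gene of a repetitive family, was at -2.51 and -0.19 (4.99-fold higher), against -2.54 and -2.36. Vegfc, a growth factor for lymphatic vessels, was at -1.68 and -0.03 (3.15-fold higher), and Pi16, a peptidase inhibitor, at -0.91 and 0.65 (2.95-fold higher). Epha2, an ephrin receptor kinase, was at -1.41 and -0.07 (2.53-fold higher). Bdh2, a short-chain dehydrogenase, was at 1.63 and 2.96 (2.50-fold higher), and Pmepa1, a feedback inhibitor of TGF-beta signalling, at -0.45 and 0.74 (2.28-fold higher, and under 2-fold with spike-in scaling). Zfp462, a zinc finger gene, was 2.64-fold higher, with 1.27 on the log2 scale by a second probe. Clec4n, the lectin receptor dectin 2, and Il13ra2, a decoy receptor for interleukin 13, were both 2.83-fold higher from control levels of -2.86 and -2.91, and both were under 2-fold after normexp correction. Slc9b2, Tcam1, Layn, Id1 and Rell1 differed by 1.04 to 1.30. They were under 2-fold both after normexp correction and with spike-in scaling, which left Slc9b2 just under it at 0.997. Spink5 (1.06) was under 2-fold with spike-in scaling. Called genes with another probe that met the rule were few, and the 6 such probes all had the same direction, 5 of them past 2-fold.

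**Figure D4:**
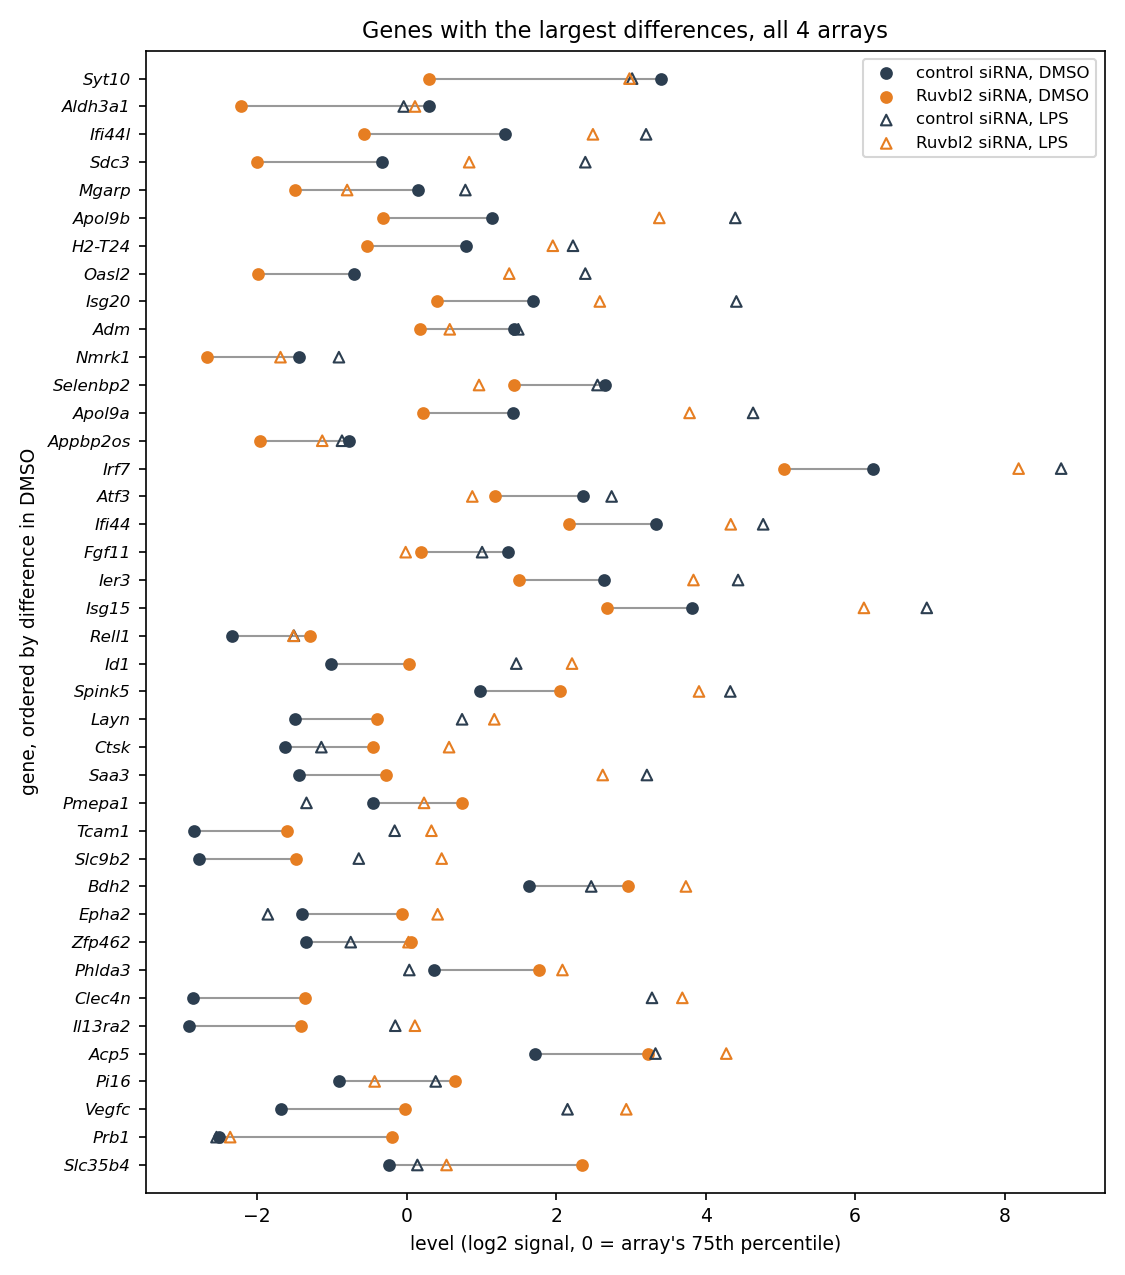
Levels (log2 signal, 0 = the array's 75th percentile) on all 4 arrays of the 20 named genes with the largest difference in each direction in DMSO, with 1 row per gene. Circles joined by a line are the DMSO arrays, open triangles the LPS arrays, dark for control siRNA and orange for Ruvbl2 siRNA. For Syt10, Aldh3a1, Prb1 and Slc35b4 the orange circle lies at least 1 away from all 3 other points. The same holds for other genes drawn here, among them Ifi44l, Sdc3, Irf7 and Isg15.

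The siRNA comparison on the LPS pair used other cultures and arrays, although the slide row was the same. There 1.38% of 10714 genes passed 2-fold. Of the 34 genes lower in DMSO, 32 could be compared with LPS, and 30 were also lower. Lower by 1.5-fold were 23 (against 3.79%) and by 2-fold 11 (against 1.05%), and the median of the 32 was -0.81. Of the 21 higher in DMSO, 20 could be compared, and 15 were also higher. Higher by 1.5-fold were 10 (against 2.14%) and by 2-fold 6 (against 0.336%), and the median of the 20 was 0.62. With LPS 47.6% of all genes compared in both pairs lay below 0, which is the share to set beside the 30 of 32. The share of all genes with the same direction in both pairs was not computed. Across the 10481 genes compared in both pairs, which are not independent replicates, Pearson's r between the differences was 0.40 and Spearman's rho 0.35. Isg20 (-1.83), Atf3 (-1.86), Selenbp2 (-1.59), Ctsk (1.71), Epha2 (2.27) and Phlda3 (2.05) differed more with LPS than without. Syt10 (-0.04), Aldh3a1 (0.15), Hmox1 (0.14), Slc35b4 (0.39) and Il13ra2 (0.26) differed by less than 1.5-fold with LPS. Prb1 was too dim on the LPS pair to be compared. None of these differences between the pairs was tested.

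The interferon-stimulated list on the LPS pair had a median of -0.30, with 43 of 58 members below 0, against 0.01 and 47.6% for all genes. Lower by 1.5-fold were 14 members, against 3.79% of all genes, and higher by 1.5-fold were 2, against 2.14%, Samhd1 (0.72) and Slfn8 (0.67). By role, the GTPases had a median of 0.10 on the LPS pair against -0.58 in DMSO, and the sensors -0.52 against -0.59. The hypoxia list had a median of -0.39 on the LPS pair, and the ATF4 list one of -0.42 against 0.02 in DMSO. For 19 of the 34 genes lower in DMSO the Ruvbl2 siRNA array in DMSO was at least 1 below all 3 other arrays, among them Ifi44l, Irf7, Isg15, Cxcl10, Hmox1, Sdc3 and Syt10. For 3 lower genes, among them Ankrd37 and Cd24a, the control siRNA array in DMSO was at least 1 above all others. For 10 of the 21 higher genes it was the control siRNA array in DMSO that was at least 1 below all others, among them Acp5, Vegfc, Saa3 and Clec4n, and for Slc35b4 and Prb1 the Ruvbl2 siRNA array in DMSO was at least 1 above the others. With control siRNA, levels in DMSO and in LPS were 6.24 and 8.76 for Irf7, 3.82 and 6.96 for Isg15, -1.45 and 3.21 for Saa3, and -2.86 and 3.28 for Clec4n. Where both LPS arrays lie above both DMSO arrays, as for these genes, standing apart repeats the difference in DMSO. Syt10, at 3.41 and 3.02, did not rise.

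**Figure D5:**
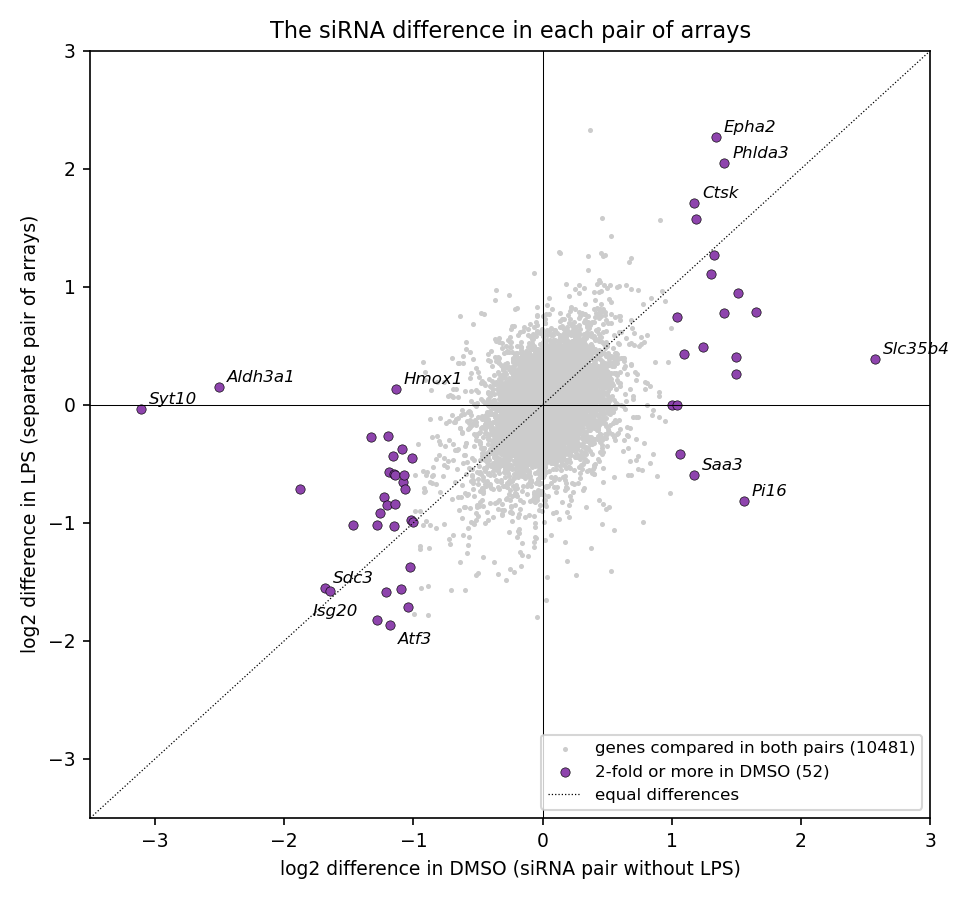
Log2 difference between the siRNAs in DMSO (horizontal axis) and in LPS (vertical axis), with 1 point per gene compared in both pairs (grey, 10481) and the 52 called in DMSO in purple. The dotted line marks equal differences. Of the purple points 45 lie on the same side of 0 on both axes, a share that was not computed for all genes. Of the 32 lower in DMSO, 30 lie below 0 in LPS, against 47.6% of the 10481 genes. Of the 20 higher in DMSO, 15 lie above 0 in LPS. Pi16 and Saa3 lie above 0 in DMSO and below it in LPS by more than 1.5-fold.

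Some genes were well above background on 1 of the DMSO arrays alone, and for these the value is the bright level minus the higher of the floor (the dimmest level well above background on the other array) and the gene's own dim level. Past 2-fold were 82 such genes as higher and 16 as lower. Higher ones were read against a floor of -5.15 on the control siRNA array, lower ones against -4.83 on the Ruvbl2 siRNA array. The deeper floor can give larger bounds for the same bright level, so these counts are not on equal terms. Their share of all genes well above background on 1 array alone was not computed. The dim level lay at or under the floor for 69 higher and 14 lower genes and above it for the other 13 and 2. On the bright array 5 higher and 0 lower ones had a level of -2 or more. Cma1, a chymase of mast cells, was at -1.19 on the Ruvbl2 siRNA array and at -5.54 on the control siRNA array, below the floor of -5.15, so it was at least 15.6-fold higher. On both LPS arrays it was not above background by that measure. Of 6 mast cell markers listed, the control siRNA array had 1 well above background (Tpsb2) and the Ruvbl2 siRNA array 2 (Tpsb2 and Cma1), and Kit, Fcer1a, Cpa3 and Mcpt4 were not on either. The part of other cells in this value was not tested. Summed over the markers on a linear scale where the 75th percentile is 1, the mast cell list was at 0.17 and 0.66. That sum includes Cma1, which was named for its bound and makes up most of the rise, so it is not a separate reading. T cell markers were at 5.28 and 5.10 (4 of 7 well above background on each) and neutrophil markers at 0.78 and 1.02 (2 and then 4 of 6). Dendritic cell markers, mostly Siglech, were at 155 and 157 (2 and then 3 of 8).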

How the data were processed

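RNA (0.1 ug per sample) was labelled with Cy3 and hybridized in 1 colour, 1 array per group. The deposited values are intensity per the file headers: each spot's processed signal, background-subtracted and detrended within its array by Agilent Feature Extraction, version 11.5.1.1 per the file headers and 11.0 per the submitters' processing notes. The deposited value table, also intensity, equalled that signal at all 62976 spots of each array. Here control spots and outlier-marked spots were left out, spots of a probe were averaged, and log2 was taken and the array's 75th percentile subtracted. Probes were named through RefSeq accessions (32994 of 56605). Array annotation and promoter windows rest on different builds, so no probe position was used.

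Members, gene lists, rules and alternatives were chosen with earlier results of these data known. Named genes were Ruvbl2, Ruvbl1, the 20 largest 2-fold differences per direction that kept their direction after normexp correction with quantile normalization and with spike-in scaling, without clone or predicted symbols, list members past 2-fold or among the 4 largest past 1.5-fold, and the largest bounds. Normexp (offset 50, limma 3.58.1, R 4.3.3) used the median spot and background signals, because the files used here hold no mean signal column. The other alternatives were median centring, quantile normalization, cyclic loess, the deposited table, other level minimums and the mean of a gene's probes. The scripts were tested on simulated data. The scanner software's own error of a difference had a median of 0.20, and the number of arrays limits every value.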

Additional observations from a re-analysis of the deposited data

Results flagged for a closer look

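For 3 genes the siRNA difference ran in opposite directions without and with LPS, by at least 1.5-fold each way, and with 1 array per group this was not tested. Fcgr2b, the inhibitory IgG receptor, differed by 0.78 without LPS and by -0.99 with it. Saa3, an acute phase protein, differed by 1.18 and -0.59. Pi16, a peptidase inhibitor, differed by 1.56 and -0.82.

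Of the 82 genes with a bound past 2-fold as higher, 57 stood well above background on the Ruvbl2 siRNA array in DMSO and on none of the other 3 arrays. Of the 16 as lower, 6 stood so on the control siRNA array in DMSO alone, and the floors of the arrays differed. The 3 largest bounds as higher among genes without clone or predicted symbols are given. Cma1, a mast cell chymase, was at least 15.59-fold higher than with control siRNA, Spint4, a protease inhibitor, at least 9.36-fold, and Pramel32, a PRAME family gene, at least 9.29-fold. PRAME family genes are near copies, so the source of that signal is uncertain.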

How the results depend on the processing

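Counts of 2-fold genes depended on the level minimum, the size rule and the scaling. Of the main 21 higher and 34 lower genes, spike-in scaling gave 11 and 101, no minimum level 54 and 56, a minimum level of 0 gave 9 higher, the 1.5-fold rule 126 and 153, and normexp correction with quantile normalization or with the 75th percentile 11 higher each. The 92 probes past 2-fold became 232 with spike-in scaling, 52 and 54 with the normexp settings, 214 with no minimum, 46 with a minimum of 0 and 621 at 1.5-fold. With spike-in scaling Ruvbl2 differed by -0.64 and the interferon-stimulated median was -0.885, against -0.55 to -0.60 under the other settings. Genes past 2-fold that were also compared with LPS had the same direction there in 86.5% of cases, and in 75.5% at 1.5-fold. The share of all genes with the same direction in both pairs was not computed, so these percentages have no matching share beside them. All 55 genes past 2-fold kept their direction under the scaling, normexp, deposited table, no-minimum and mean-of-probes settings, and so did the 33 left with a minimum of 0. Much of this was fixed in advance. Spike-in scaling and median centring shift every difference by the same amount. The deposited table equals the signal used, a changed minimum leaves values as they were, and few called genes had another probe to average. Of the 17 list medians 13 turned from above to below 0 with spike-in scaling. Up to 4 medians near 0 (ATF4, cell cycle, interferon induction, sterol) did so under other settings. Under 2-fold were 13 named genes with either normexp setting, 9 with spike-in scaling and Fgf11 with the mean of probes. Of all 55, 33 stayed past 2-fold with either normexp setting and 45 with spike-in scaling. Named genes that became past 2-fold were Eno2 with spike-in scaling, quantile normalization, cyclic loess and both normexp settings, and Ndrg1, Ocstamp and Trib3 with spike-in scaling. The causes were not tested. No paired analysis was possible because each group was 1 array, and no replicate could be left out for the same reason. Dim genes limit the precision: 108 of the genes compared had a mean level under -2, and 10 of those were called.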
